A study of Rattus norvegicus with 9 samples.

Results

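The set described here holds 8 genes used as markers of injured kidney tubule, found by their Ensembl identifiers among the 17862 features of each deposited file. They are Havcr1 (ENSMUSG00000040405), Lcn2 (ENSMUSG00000026822), Spp1 (ENSMUSG00000029304), Clu (ENSMUSG00000022037), Krt8 (ENSMUSG00000049382), Krt18 (ENSMUSG00000023043), Sox9 (ENSMUSG00000000567) and Timp1 (ENSMUSG00000001131). All 8 were present in all 9 samples. The rule that picks them names identifiers and uses no measured value, but the genes were chosen with earlier results of these data known. Kidney RNA depleted of ribosomal RNA was sequenced in 3 groups of 3 samples at 6 weeks of age. The groups were hypertension treated with the herbal medicine Qingda granule (QDG), hypertension without treatment (Model) and normal animals (WT). The sources used here do not give the strain, the origin of the hypertension, the granule's dose or whether each sample is 1 animal. The p-values thus rest on the spread among these samples, part of which may be technical.

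These genes belong to the response of tubule epithelium to damage. A stressed tubule cell loses part of its transport program, displays or secretes proteins that are scarce in intact epithelium, rebuilds its keratin skeleton and, where it survives, takes part in repair. Havcr1 encodes kidney injury molecule 1, a phosphatidylserine receptor of injured proximal tubule. Lcn2, Spp1 and Clu encode secreted proteins: a siderophore-binding lipocalin, the integrin ligand osteopontin, and the chaperone clusterin. Krt8 and Krt18 form the paired keratin filaments of simple epithelia, Sox9 is a transcription factor of regenerating tubule cells, and Timp1 is an inhibitor of matrix metalloproteinases.

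Clu was the 1 gene of the set that passed the test, and it did so in both hypertensive groups, with 2.07-fold (QDG) and 2.10-fold (Model) the mean level of WT kidneys. Of all features tested, 7.90% passed between Model and WT and 2.47% between QDG and WT. The call of Clu against WT was lost for QDG without any 1 of the QDG libraries, WT 1 or WT 2, and for Model without Model 1, Model 3, WT 1 or WT 2. Havcr1 had its lowest values in the QDG libraries, without overlap with either other group, but it was scarce and no difference of it passed. Of all features, 12.4% were lower in QDG than in Model without overlap, and 11.3% lower in QDG than in WT. Spp1, Krt8, Krt18, Lcn2, Sox9 and Timp1 passed in no comparison. In bulk tissue, fewer cells of a type and less RNA per cell cannot be told apart.

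Values are taken to be FPKM, fragments scaled to feature length and to a denominator for each library, as the authors deposited them. The denominators implied by the steps of the values were 26.2 M to 31.4 M. The reads recovered over all features came to 90.0% to 107% of them, and to more than 100% in Model 1, Model 3, WT 1 and WT 2, so the denominators are not the sums of these reads. The sources used here do not say what they are. The median feature stood at 2.59 to 2.76 FPKM. The labels name the brown rat and the identifiers are those of mouse genes. Which species the RNA came from was not tested. If rat reads were assigned to mouse genes, a value would also depend on how alike the sequences are. Differences were tested with 1 limma model of log2(FPKM + 1) for the 12187 features that averaged 1 FPKM or more, and called at a Benjamini-Hochberg adjusted p under 0.05. Of the 8 genes, 5 passed this limit. The other 3, Havcr1, Timp1 and Sox9, averaged 0.800, 0.515 and 0.101 FPKM, and their tests come from the same model fitted to all 17862 features. None of these 3 was called there, where 3.94% of all features were called for Model against WT, 0% between QDG and Model, and 1.23% for QDG against WT. A log2 difference on this scale understates the change of scarce genes.

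The genes stood at very different levels. Spp1 was the most abundant of the set in every library with a percentile rank of 99.5 to 99.7 among all features and 362 to 702 FPKM. Clu and Krt8 followed with 42.7 to 127 FPKM and 67.4 to 108 FPKM. Krt18 had 10.9 to 18.4 FPKM and Lcn2 1.29 to 3.70 FPKM. Havcr1 had 0.107 to 2.71 FPKM, Timp1 0.215 to 1.27 FPKM and Sox9 0.0368 to 0.185 FPKM, so that the ranges of Lcn2, Havcr1 and Timp1 overlapped. Recovered reads ranged over 15714 to 31049 per library for Spp1 and over 4162 to 11684 for Clu. They were only 7 to 188 for Havcr1, 5 to 33 for Timp1 and 4 to 22 for Sox9, so counting error is large for these last genes.

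**Figure D1:**
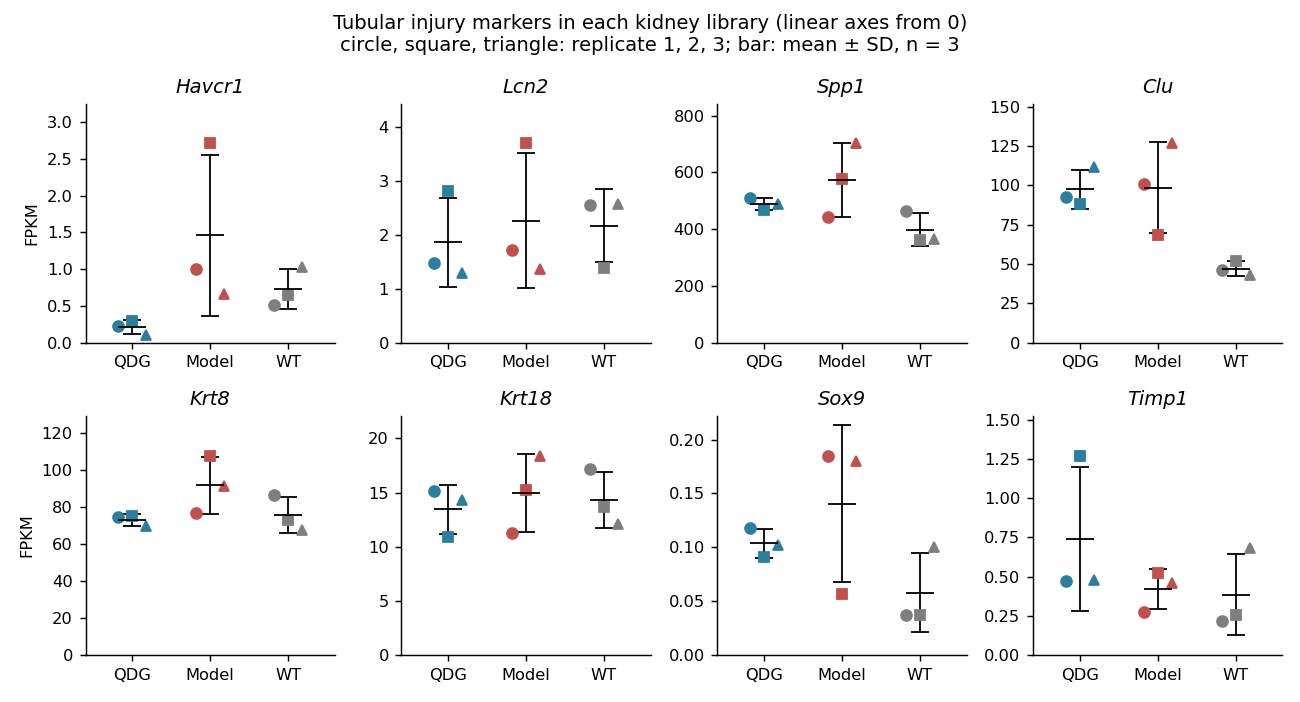
FPKM (linear axes from 0) of each gene in each QDG, Model and WT library. Symbols mark replicates 1 to 3, and bars give the mean and SD of 3 libraries. For Clu, the 3 QDG and 3 Model libraries sit between 68.5 and 127 FPKM, above the WT libraries at 42.7 to 52.2 FPKM. For Havcr1, the QDG libraries sit at 0.107 to 0.296 FPKM, below all others.

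Clu, whose product clusterin binds misfolded proteins outside the cell and is made by damaged tubule, was higher in both hypertensive groups. Its values were 92.5, 88.1 and 112 FPKM in the QDG libraries, 101, 68.5 and 127 FPKM in the Model libraries, and 46.2, 52.2 and 42.7 FPKM in the WT libraries. All 6 hypertensive libraries lay above all 3 WT libraries, and the QDG range lay inside the Model range. Of all tested features, 17.3% were likewise higher in Model than in WT without overlap, and 15.2% higher in QDG than in WT. The share higher in both was not counted. The means were 97.4 ± 12.4 FPKM in QDG, 98.6 ± 29.1 FPKM in Model and 47.04 ± 4.77 FPKM in WT (SD, n = 3 each).

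For Model against WT, Clu rose by a log2 of 1.01, SE 0.20 (limma adjusted p = 0.0224). The means differed 2.10-fold, and 98.7% of the tested features had a smaller absolute log2 difference. Clu was the 1 gene called of the 5 tested in this comparison, where 7.90% of all tested features were called. Its groups did not overlap, as was the case for 17.3% of these features in this direction. The call was lost without WT 1, WT 2, Model 1 or Model 3 (limma adjusted p = 0.0549, 0.0524, 0.0645 and 0.0613), and when only the Model and WT libraries were fitted (limma adjusted p = 0.0622). Without Model 2, the lowest Model library for Clu, the log2 difference was 1.25 (limma adjusted p = 0.00591). Over all 18 alternatives the limma adjusted p ran from 0.00591 to 0.0645.

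For QDG against WT, Clu rose by a log2 of 1.03, SE 0.20 (limma adjusted p = 0.0317), a 2.07-fold difference of means. It was again the 1 gene called of 5, against 2.47% of all tested features. The call was lost without WT 1, WT 2, QDG 1, QDG 2 or QDG 3 (limma adjusted p = 0.0999, 0.0526, 0.106, 0.0966 and 0.113). Over all 18 alternatives the limma adjusted p ran from 0.00765 to 0.113. The 2 comparisons share the WT libraries and are not independent of each other. For QDG against Model, the log2 difference of Clu was 0.02 with a 95% interval of −0.43 to 0.47 (limma adjusted p = 0.972). The spread of these libraries leaves any difference within that interval undetected.

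**Figure D2:**
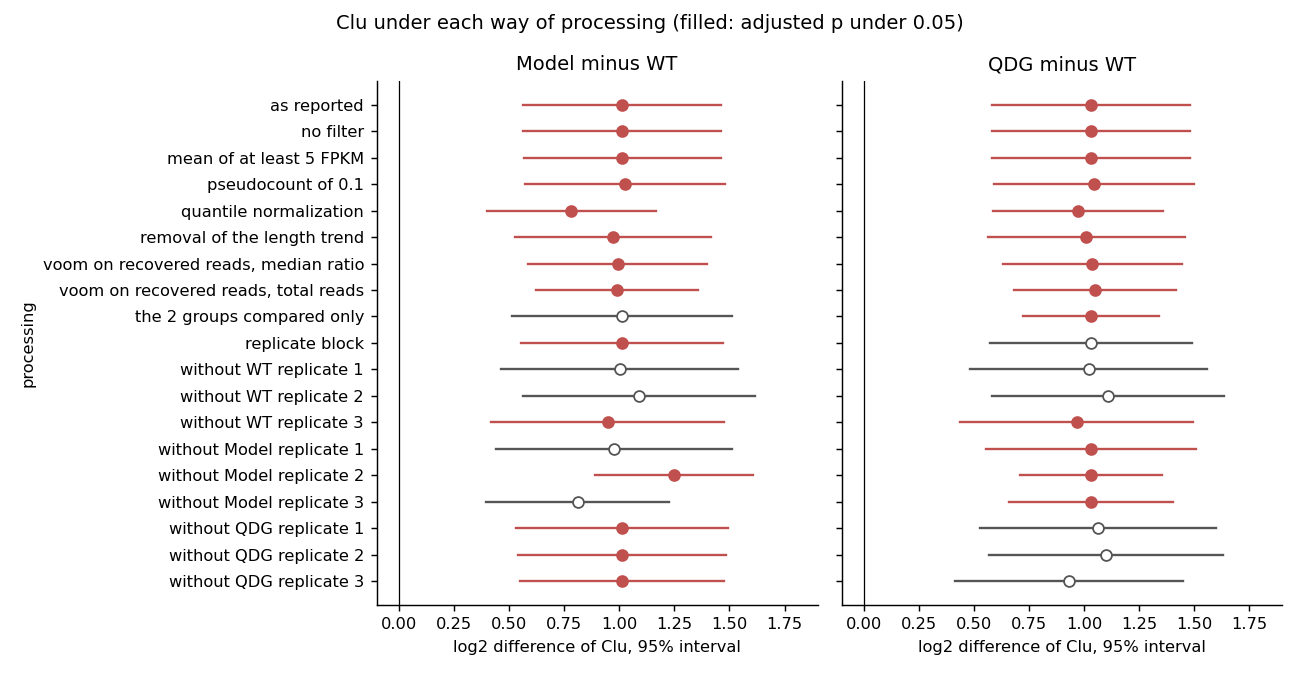
Log2 difference of Clu with its 95% interval (x axis) under each way of processing the values (y axis), for Model minus WT and QDG minus WT. Filled points have an adjusted p under 0.05. The differences stay between 0.78 and 1.25 for Model minus WT and between 0.93 and 1.11 for QDG minus WT, while the call is lost in several fits.

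The profile of Clu over the 9 libraries was compared with those of all tested features by the root-mean-square difference of centred log2(FPKM + 1). The files pair no identifier with a gene name, so the 2 nearest features are given by identifier. ENSMUSG00000021263 differed from Clu by a root mean square of 0.15, and ENSMUSG00000032523 by 0.16, while Clu itself deviated from its own mean by 0.54. The nearest, ENSMUSG00000021263, had 24.3 to 25.1 FPKM in QDG, 14.2 to 33.04 FPKM in Model and 8.83 to 13.2 FPKM in WT. Both shared with Clu the low value in Model 2 among the Model libraries. They were picked for likeness to Clu over these same 9 libraries, so this is no separate observation. Within the set, the gene nearest to Clu was Spp1, at 0.40, and the farthest was Havcr1, at 0.83.

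Spp1 encodes osteopontin, a secreted phosphoprotein that binds integrins and CD44. It had 509, 467 and 489.5 FPKM in the QDG libraries, 442, 575 and 702 FPKM in the Model libraries, and 465, 362 and 365 FPKM in the WT libraries. All QDG libraries lay above all WT libraries by a narrow margin, while Model overlapped with both groups. Of the 12187 tested features, 15.2% were likewise higher in QDG than in WT without overlap, so Spp1 is 1 of many with this arrangement. No difference of Spp1 passed. For Model against WT the log2 difference was 0.51, SE 0.18 (limma adjusted p = 0.104). It was 0.31 for QDG against WT and −0.21 for QDG against Model, with 95% intervals of −0.10 to 0.71 and −0.61 to 0.20 (limma adjusted p = 0.364 and 0.627). After quantile normalization the Model difference was 0.25 (limma adjusted p = 0.306, within a range of 0.0790 to 0.306 over all alternatives). The difference of QDG against Model was −0.03 after quantile normalization, −0.05 without Model 3 and −0.38 without Model 1. Spp1 varied little among the QDG libraries, with a coefficient of variation of 4.29% against 22.7% in Model and 14.7% in WT. The median over all tested features was also lowest in QDG, at 7.88%, 12.4% in Model and 15.8% in WT.

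Lcn2 encodes neutrophil gelatinase-associated lipocalin, an iron-carrier-binding protein made by distal nephron after injury and also stored in neutrophils. Its values were 1.47, 2.81 and 1.29 FPKM in QDG, 1.72, 3.70 and 1.36 FPKM in Model, and 2.55, 1.39 and 2.57 FPKM in WT. The 3 groups overlapped throughout, and the spread within each group was larger than the differences between the means of 1.86, 2.26 and 2.17 FPKM. The log2 difference of Model against WT was −0.0010 with a 95% interval of −0.62 to 0.62 (limma adjusted p = 0.999). For QDG against Model it was −0.16, with an interval of −0.78 to 0.46 (limma adjusted p = 0.819), and 0.13 without Model 2. Neutrophil markers could not be set beside it, since the marker lists are written in gene symbols and matched 0 identifiers. The part of such cells in its values was not tested.

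**Figure D3:**
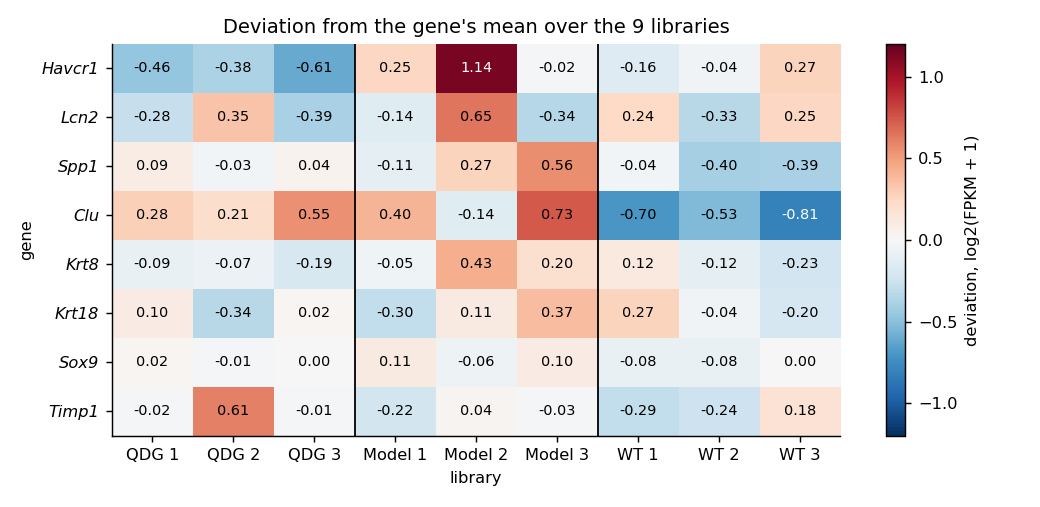
Deviation of each gene (rows) from its own mean over the 9 libraries, in log2(FPKM + 1), for each library (columns). Red is above and blue below the mean. Clu is below its mean in all WT libraries and in Model 2. Havcr1 is below its mean in all QDG libraries and, by less, in Model 3, WT 1 and WT 2. Model 2 is highest for Havcr1 (1.14), Lcn2 (0.65) and Krt8 (0.43).

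Havcr1 was lowest in the granule-treated kidneys. It had 0.226, 0.296 and 0.107 FPKM in the QDG libraries, from 15, 20 and 7 recovered reads. The Model libraries had 1.01, 2.71 and 0.661 FPKM, from 67, 188 and 41 reads, and the WT libraries had 0.512, 0.642 and 1.03 FPKM, from 31, 39 and 75 reads. Every QDG library thus lay below every Model and every WT library, and Model and WT overlapped. The highest QDG library had an exact Poisson 95% interval of 0.181 to 0.457 FPKM and the lowest Model library one of 0.474 to 0.897 FPKM. These intervals cover counting error only. The lowest WT library, with an interval of 0.348 to 0.727 FPKM, overlapped with that of the highest QDG library.

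Havcr1 averaged 0.209 ± 0.0954 FPKM in QDG, 1.46 ± 1.10 FPKM in Model and 0.729 ± 0.272 FPKM in WT (SD, n = 3 each). For QDG against Model the ratio of means was 0.143. The log2 difference was −0.94, SE 0.25, with an unadjusted p of 0.00400, which did not pass over all features (limma adjusted p = 0.328). Groups without overlap and lower in QDG made up 12.4% of all features in this comparison. The exact two-sided permutation test gave p = 0.1, the smallest that 3 against 3 allows. In voom on the recovered reads, scaled by the median ratio, the log2 difference was −2.63, SE 0.63 (limma adjusted p = 0.277). Model 2 was far the highest Model library, and without it the log2 difference was −0.60 (limma adjusted p = 0.409). Over all 16 alternatives the limma adjusted p ran from 0.240 to 0.769.

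Against WT, the log2 difference of Havcr1 in QDG was −0.51 with a 95% interval of −1.07 to 0.05 (limma adjusted p = 0.323), a ratio of means of 0.287. Of all features, 11.3% were lower in QDG than in WT without overlap. For Model against WT it was 0.43 with an interval of −0.13 to 0.99 (limma adjusted p = 0.333), and 0.09 without Model 2. The RefSeq table of the rat assembly GRCr8 lists 3 Havcr1-like genes or pseudogenes. The sources used here do not say how reads shared with such copies were assigned.

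**Figure D4:**
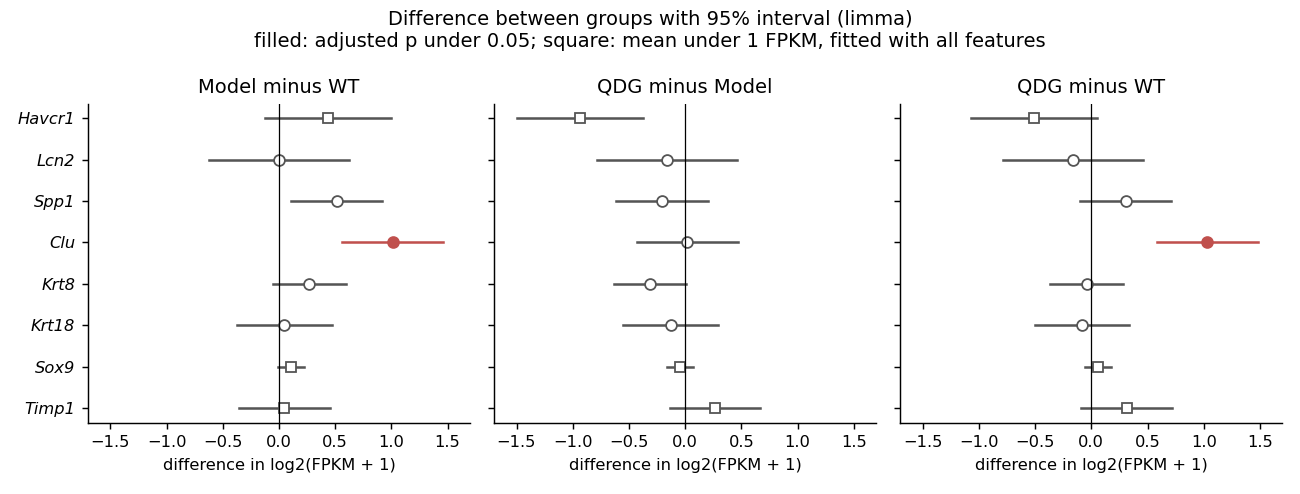
Difference in log2(FPKM + 1) with its 95% interval (x axis) for each gene (y axis) in the 3 comparisons. Filled points have a limma adjusted p under 0.05 and squares mark genes under a mean of 1 FPKM. Clu stands at 1.01 for Model minus WT and 1.03 for QDG minus WT, and the interval of Havcr1 for QDG minus Model runs from −1.50 to −0.38 before adjustment.

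Krt8, the type II keratin of simple epithelium, had 74.5, 75.3 and 69.5 FPKM in QDG, 76.8, 108 and 91.1 FPKM in Model, and 86.4, 73.1 and 67.4 FPKM in WT. All QDG libraries lay just below all Model libraries, whereas WT overlapped with both. The log2 difference of QDG against Model was −0.31 with a 95% interval of −0.63 to 0.0093 (limma adjusted p = 0.370). It was −0.14 after quantile normalization and −0.19 without Model 2. Of all tested features, 16.3% were lower in QDG than in Model without overlap. The log2 difference of Model against WT was 0.27 (limma adjusted p = 0.250) and that of QDG against WT was −0.04 (limma adjusted p = 0.899). The Model difference was 0.04 after quantile normalization and 0.15 without Model 2.

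Krt18, its type I partner, had 15.1, 10.9 and 14.3 FPKM in QDG, 11.2, 15.2 and 18.4 FPKM in Model, and 17.2, 13.7 and 12.1 FPKM in WT. The groups overlapped fully. Its log2 differences were 0.05 (Model minus WT), −0.13 (QDG minus Model) and −0.08 (QDG minus WT; limma adjusted p = 0.895, 0.784 and 0.840). The rat table lists 6 Krt18 pseudogenes. Whether reads of Krt18 were divided with such copies was not tested, and the reference used for counting is not given.

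The 2 keratins assemble in pairs, and the ratio of their FPKM was compared within libraries. Krt8 exceeded Krt18 by 4.92, 6.90 and 4.87 times in QDG, 6.84, 7.07 and 4.95 times in Model, and 5.04, 5.35 and 5.57 times in WT. The WT libraries lay close together, while QDG 2, Model 1 and Model 2 stood above all of them. The mean ratio was 5.56 ± 1.16 in QDG, 6.29 ± 1.16 in Model and 5.32 ± 0.269 in WT (SD, n = 3 each). None of the 3 differences was larger than the spread (exact two-sided permutation test of the log2 ratio, p = 0.3 for QDG against Model, 0.4 for Model against WT and 1 for QDG against WT, with 0.1 the smallest possible). The SD of the log2 ratio over the 9 libraries, 0.22, lay between that of Krt8 alone (0.21) and that of Krt18 alone (0.24).

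The order of Clu and Krt8 turned round between the groups. The ratio of Clu to Krt8 was 1.24, 1.17 and 1.61 in QDG, 1.31, 0.637 and 1.39 in Model, and 0.535, 0.714 and 0.634 in WT. Clu thus stood above Krt8 in every QDG library and in Model 1 and Model 3, and below it in every WT library and in Model 2. The exact two-sided permutation test of the log2 ratio gave p = 0.1 for QDG against WT, the smallest possible, and p = 0.2 for Model against WT. This ratio was chosen after its values were seen.

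**Figure D5:**
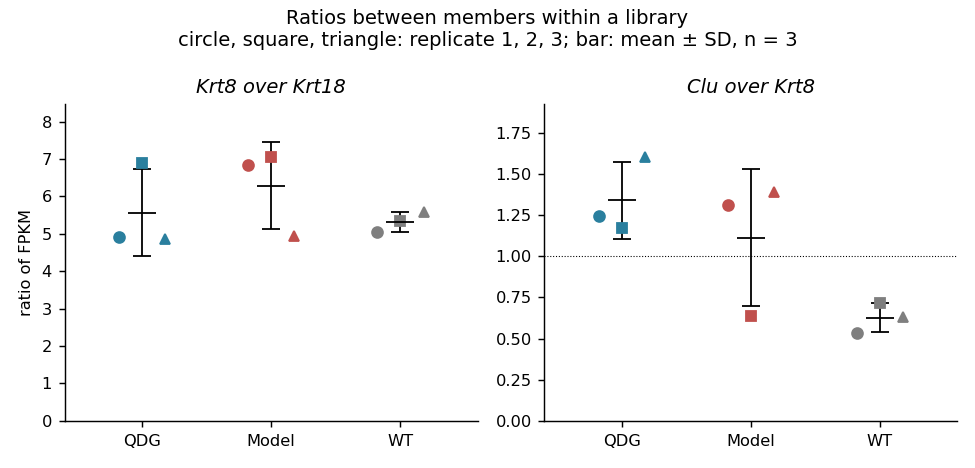
Ratio of FPKM (linear axes from 0) of Krt8 to Krt18 and of Clu to Krt8 in each QDG, Model and WT library, with the mean and SD of 3 libraries. The dotted line marks equal FPKM. Krt8 to Krt18 runs from 4.87 to 7.07 with overlapping groups, and Clu to Krt8 is above 1 in every QDG library and below 1 in every WT library.

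Sox9, a transcription factor that surviving proximal tubule cells switch on during repair, was near the floor of the data. It had 0.118, 0.0909 and 0.102 FPKM in QDG, 0.185, 0.0564 and 0.180 FPKM in Model, and 0.0369, 0.0368 and 0.1001 FPKM in WT. These values came from 14, 11 and 12 reads in QDG, 22, 7 and 20 in Model, and 4, 4 and 13 in WT. Model 1 and Model 3 were the highest libraries, WT 1 and WT 2 the lowest, and the groups overlapped. In voom on the recovered reads, scaled by the median ratio, the log2 difference was 1.14 with a 95% interval of −0.11 to 2.39 for Model against WT (limma adjusted p = 0.251, within a range of 0.0803 to 0.511 over all alternatives). It was 0.89 for QDG against WT and −0.25 for QDG against Model (limma adjusted p = 0.446 and 0.875). On the log2(FPKM + 1) scale these differences were 0.11, 0.06 and −0.05, and none passed (limma adjusted p = 0.255, 0.572 and 0.759). Without Model 2, the lowest Model library for Sox9, the Model difference on this scale was 0.16 (limma adjusted p = 0.0803).

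Timp1, the secreted inhibitor that binds matrix metalloproteinases, had 0.470, 1.27 and 0.477 FPKM in QDG, 0.274, 0.525 and 0.462 FPKM in Model, and 0.215, 0.257 and 0.681 FPKM in WT. QDG 2 alone was above 1 FPKM, and it came from 33 reads, against 5 to 19 in the other libraries. The groups overlapped. The log2 difference was 0.27 for QDG against Model, 0.05 for Model against WT and 0.31 for QDG against WT (limma adjusted p = 0.574, 0.900 and 0.389). Without QDG 2, QDG differed from Model by 0.06 and from WT by 0.11. In voom on the recovered reads, scaled by the median ratio, these differences were 0.67 and 0.89 (limma adjusted p = 0.628 and 0.417). In the rat assembly Timp1 lies inside the gene Syn1. The sources used here do not say whether the counting used strand, so reads from the pair may not be told apart.

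The 8 genes did not share 1 pattern. In Model against WT, 7 of 8 log2 differences were positive, with a median over the 8 of 0.19 against −0.0046 over all features in the same fit. Of these 8 signs, those of Lcn2, Krt18 and Timp1 turned under another scaling. In QDG against Model, 6 of 8 were negative and the median was −0.15, against 0.0045 over all features. In QDG against WT, 4 were positive and 4 negative, with a median of 0.01 against −0.00011. The comparisons share libraries, so these counts are not independent. For QDG against Model, 0 of the 5 genes tested passed, and 0 of all 12187 features (0%; limma). At an unadjusted p under 0.05 stood 0 of these 5 genes and 13.9% of the 12187 features. In the fit to all 17862 features, 2 of the 8 genes, Havcr1 and Krt8, and 12.2% of all features stood there. Voom on recovered reads also called 0 of the 5 genes tested in QDG against Model, and 0 of all 12187 features.

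The Model libraries differed from each other in which markers were high. Model 2 was the highest Model library for Havcr1, Lcn2, Krt8 and Timp1, and the lowest for Clu and Sox9. Model 3 was the highest for Spp1, Clu and Krt18 and the lowest for Havcr1 and Lcn2. QDG 2 was the highest QDG library for the same 4 genes, Havcr1, Lcn2, Krt8 and Timp1, and the lowest for Clu, Sox9, Spp1 and Krt18. For Havcr1, Krt8 and Sox9 its exact Poisson 95% interval overlapped with that of QDG 1. WT 2 had another arrangement, as the highest WT library for Clu and the lowest for Lcn2.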

How the data were processed

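Per the labels' protocols, Trizol-extracted RNA was depleted of ribosomal RNA before library construction. Limma appears in the submitters' processing notes. The sources used here do not give the aligner, counter, build or annotation. In each file the authors deposited 1 value per feature and library, taken to be FPKM because the values move in steps set by a whole-base length and a denominator for each library. Reads were recovered from these steps for 17861 of 17862 features, within 0.001 read plus a share of 1e-07 of the reads.

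Values were analysed as log2(FPKM + 1) with limma 3.58.1 (R 4.3.3), trend on, all 9 libraries in 1 model, two-sided, adjusted over all features tested. All 8 genes are named. Symbols come from the list that defines the set; of its 8 symbols 8 are in the RefSeq rat table (GRCr8), which lists no Ensembl identifiers and matched 0 features, so the 11 further gene and marker lists (85 symbols), among them kidney tubule markers, could not be used and the tissue label was not checked. The genes and lists were chosen with earlier results of these data known. The procedure was tested on simulated data. Alternatives were another low-value limit or none, a pseudocount of 0.1, quantile normalization, removal of each library's length trend, voom on recovered reads, the compared groups alone, a replicate block and leaving out each library.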

Additional observations from a re-analysis of the deposited data

How the results depend on the processing

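Every log2 difference of Clu against WT stayed positive. The number of genes of the set called in Model against WT was 1, and 0 when only these groups were fitted, where calls over all 12187 features also fell to 144, against 963. In QDG against WT it was 1, and 0 with the replicate number as a block (Clu, limma adjusted p = 0.0528), with 154 calls over all features, against 301. Leaving out 1 library gave 0 to 1 in both, and 0 in QDG against Model, beside 195 to 1529 calls over all features in Model against WT, 39 to 775 in QDG against WT and 0 to 3 in QDG against Model. The block called 1 gene in Model against WT and 0 in QDG against Model, beside 533 and 0 calls over all 12187 features. Same-numbered libraries did not deviate together more than others (correlations of −0.33 to 0.14, against −0.24 to 0.43 for differing numbers). This does not settle whether the numbers pair them.

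None of the differences that reversed had been called. In Model against WT, Lcn2 was at 0.026 after quantile normalization and at −0.30 to 0.20 with 1 library left out. Krt18 was at −0.040 with quantile normalization, −0.063 without the length trend and −0.11 to 0.23 with 1 library left out. Timp1 was at −0.076 without the length trend and at −0.038 to 0.20 with 1 left out. The other reversals came from leaving out 1 library. In QDG against Model, Lcn2 ranged over −0.39 to 0.13, Clu over −0.22 to 0.22 and Krt18 over −0.31 to 0.023. In QDG against WT, Krt8 ranged over −0.12 to 0.057, Krt18 over −0.19 to 0.051 and the log2 ratio of Krt8 to Krt18 over −0.11 to 0.12. The causes were not tested. Of 411 refits of the 24 differences, 379 kept direction and side of the threshold, 11 lost the call of Clu and 21 reversed. Another low-value limit or none, the compared groups alone, the block and leaving out a library outside the comparison leave the log2 difference unchanged. Direction was fixed in advance in those refits, so the tally overstates stability. Havcr1, Sox9 and Timp1 rest on 4 to 188 reads a library. The Poisson intervals of Model 2 and Model 3 did not overlap for Havcr1, nor did those of QDG 2 and the other QDG libraries for Timp1. For Timp1 the gap was narrow, from 0.834 FPKM (QDG 3, upper limit) to 0.874 FPKM (QDG 2, lower limit). These libraries were picked after their values were seen, and the intervals take the recovered reads as independent. Whether the libraries differ by more than counting error was not tested.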
